A study of Mus musculus with 6 samples.

Results

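The genes described here encode the enzymes and adaptor proteins that place N6-methyladenosine (m6A) on RNA and the proteins that read it: the methyltransferase pair Mettl3 and Mettl14, the regulatory subunits Wtap, Rbm15, Rbm15b and Zc3h13, the cytoplasmic readers Ythdf1, Ythdf2 and Ythdf3, and the nuclear reader Ythdc1. These 10 genes, of 41388 in the count files, were chosen by name after Wtap and Rbm15 had been seen to differ between the libraries, with a view to whether the 2 vary together while the catalytic subunits stay flat. The selection therefore rested on counts and lengths in all 6 libraries, and their levels and spread are given without a test, while calls from fits across all genes are given as a description and support nothing. All 10 were found in the files, and all 10 passed the filter on low counts.

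Methylation at the N6 position of adenosine is the most common internal modification of messenger RNA. Mettl3 carries the catalytic site, Mettl14 helps to hold the RNA, and Wtap brings the pair into nuclear speckles, where Zc3h13 keeps the complex in the nucleus. Rbm15 and its paralogue Rbm15b bind RNA and bring the complex to its targets, among them the X-inactivation RNA Xist. Ythdf2 recruits the CCR4-NOT deadenylase to methylated transcripts, Ythdf1 and Ythdf3 are tied to translation and decay, and Ythdc1 acts in splicing and export from the nucleus. In adult sensory neurons, m6A and Ythdf1 are known for a part in protein synthesis and axon regrowth after nerve injury.

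The RNA came from cells sorted by EGFP from T11 to S1 dorsal root ganglia of mouse embryos of the strain C57BL/6, taken at 18.5 days after coitum, and the groups were 3 male libraries (A, C and D) and 3 female libraries (A, B and C). Embryos of both sexes carried the Ret-EGFP reporter, which marks cells with activity at the gene of the receptor tyrosine kinase Ret. The genotype label gives it as Tg(Ret-EGFP)SJ, and the series description as a knock-in at the Ret locus in heterozygotes; as labelled, both sexes carried the same one. Each library was a pool. It held 60 ganglia of 3 embryos in male A and female A, 40 ganglia of 2 embryos in male C and male D, and 20 ganglia of 1 embryo in female B and female C. Female B and female C were also deposited apart from the rest, in records laid out differently; they are called record set 2 here and the remaining 4 libraries record set 1. Sex and record set thus overlap, since no male library is in record set 2.

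Library totals ranged from 17861500 to 29330101 counts, and 3 counts, which is as much as a count of 0 leaves possible, stood for 0.102 to 0.168 CPM (counts scaled to library size). That limit covers counting error only. Among 12 sensory neuron markers, led by Stmn2 and Tubb3, the summed level ranged from 14395 to 19723 CPM, against 969 to 2264 CPM for 10 markers of satellite glia and Schwann cells, among them Fabp7. Male A stood apart, with glial markers at 2264 CPM against 969 to 1183 CPM in the other libraries and 7 fibroblast markers (led by Dcn and Col1a2) at 2873 CPM against 574 to 675 CPM. Its summed levels were also highest for 8 cell cycle genes (led by Mcm6 and Top2a) and for 8 endothelial and pericyte markers (led by Rgs5 and Pdgfrb), although Dcn and Rgs5 on their own were not highest there. The library labelled male C carried Xist at 58.9 CPM, where male A and male D had 0.418 and 0.575 CPM and the females 111 to 197 CPM, so it goes against its label in part. In bulk RNA, fewer cells of a type and less RNA per cell cannot be told apart.

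To compare the genes with one another, counts were divided by the length of each gene's merged exons and scaled to the same sum in each library (TPM). On this scale, as mean ± SD over 6 libraries, the order ran from Ythdf2 at 100.4 ± 16.4 TPM and Wtap at 54.3 ± 42.6 TPM to Rbm15b at 12.1 ± 1.97 TPM and Ythdc1 at 8.03 ± 1.78 TPM. Between them lay Ythdf1 at 27.7 ± 5.24 TPM, Ythdf3 at 24.0 ± 7.97 TPM, Mettl3 at 23.3 ± 4.59 TPM, Rbm15 at 16.0 ± 12.7 TPM, Zc3h13 at 14.5 ± 3.93 TPM and Mettl14 at 12.5 ± 1.60 TPM. Neighbours in this order differed by less than the larger of their SDs, apart from Ythdf2 and Wtap at the top and Rbm15b and Ythdc1 at the bottom. Ythdf2 had the highest level of the 10 in 5 of 6 libraries. In female C, Wtap stood higher, at 107 TPM against 102 TPM for Ythdf2. The length counts every annotated exon, so a gene with long exons that these cells do not use is set too low.

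**Figure D1:**
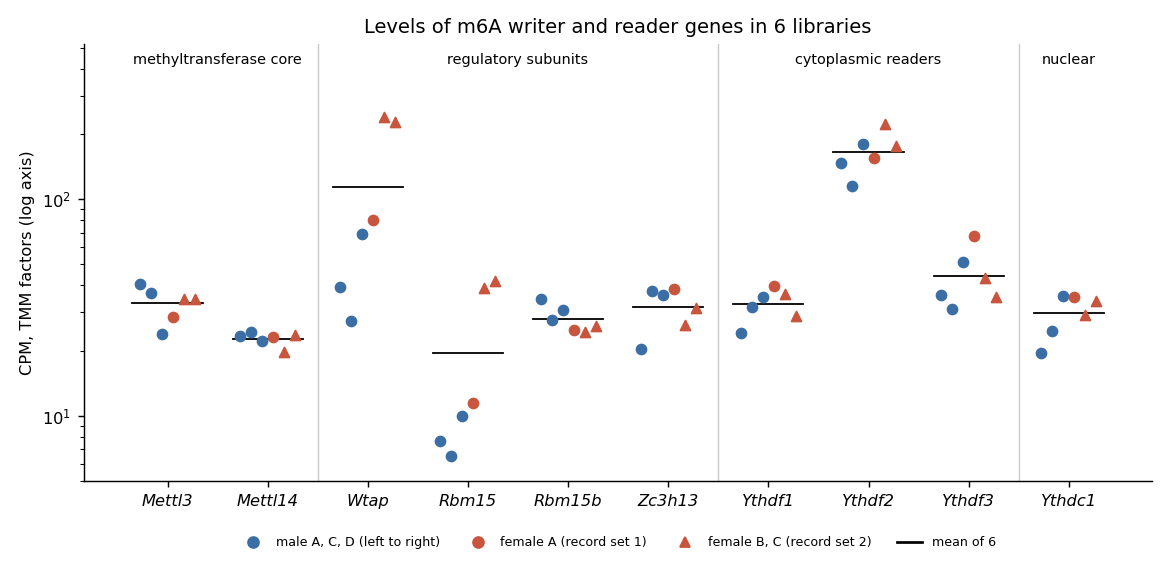
Level of each of the 10 genes (CPM with TMM factors, log axis) in the 6 libraries, with males as blue circles, female A as a red circle, females B and C as red triangles and the mean of 6 as a bar. Wtap and Rbm15 are the genes whose triangles stand far above the circles; Wtap reached 239 CPM in female B and 27.2 CPM in male C.

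Among the regulatory subunits, Wtap (ENSMUSG00000060475, GRCm38 chr17:12966796-12992546, minus strand) varied most. The next levels are within single genes and are CPM with TMM factors. Wtap stood at 39.2, 27.2 and 68.9 CPM in the male libraries A, C and D and 80.1, 239 and 228 CPM in the female libraries A, B and C. The libraries of record set 2 were far above the other 4, and female A was close to male D. The female libraries averaged 182 ± 88.7 CPM and the male libraries 45.1 ± 21.5 CPM (SD, n = 3 each). Within record set 1 the highest level was still 2.94-fold the lowest, with male A and male C below male D and female A. These levels rest on 750 to 4556 counts per library. Near-identical copies in the pseudogenes Gm14292 and Gm7381 cover 14.3% of the longest Wtap transcript, and these held at most 1 count in a library. The setting for multi-mapping reads is not known, so Wtap may have lost reads in this stretch.

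Rbm15 (ENSMUSG00000048109, chr3:107326110-107333289, minus strand) followed the same order of libraries apart from the top pair. It was at 7.68, 6.55 and 10.0 CPM in the male libraries A, C and D and 11.5, 38.9 and 41.8 CPM in the female libraries A, B and C, from 147 to 836 counts. Again both libraries of record set 2 lay far above the rest, and each female library lay above each male one. The female mean was 30.7 ± 16.8 CPM and the male mean 8.08 ± 1.77 CPM (SD, n = 3 each). In record set 1 the levels differed by 1.75-fold from lowest to highest, less than for Wtap.

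Its paralogue Rbm15b (ENSMUSG00000074102, chr9:106880918-106887428, minus strand), a gene of 1 exon, did not share this pattern. It was at 34.6, 27.8 and 30.7 CPM in the male libraries A, C and D and 24.8, 24.3 and 25.9 CPM in the female libraries A, B and C. Each male library was above each female one, by a small margin. Of the summed TPM of the pair, Rbm15 made up 30.7%, 31.9% and 39.4% in males A, C and D and 47.9% in female A. In female B and female C it was 76.2% and 76.3%, so that Rbm15 was the minor transcript of the pair in record set 1 and the major one in record set 2. Zc3h13 (ENSMUSG00000022000, chr14:75284373-75344426, plus strand) was at 20.4, 37.5 and 36.0 CPM in the male libraries A, C and D and 38.4, 26.2 and 31.4 CPM in the female libraries A, B and C. The sexes overlapped, with the lowest level in male A and the highest in female A.

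Over the 6 libraries the methyltransferase core varied less than Wtap and Rbm15. Mettl14 (ENSMUSG00000028114, chr3:123364645-123385990, minus strand) stayed between 19.6 CPM in female B and 24.3 CPM in male C, with 23.4 in male A, 22.2 in male D, 23.1 in female A and 23.6 in female C. That is a ratio of 1.24 from highest to lowest, the smallest of the 10 genes. Mettl3 (ENSMUSG00000022160, chr14:52294668-52305128, minus strand) was at 40.5, 36.7 and 23.8 CPM in the male libraries A, C and D and 28.5, 34.5 and 34.7 CPM in the female libraries A, B and C. Its highest levels were thus in male A and male C, where those of Wtap were lowest. Exons of Mettl3 share 1106 bp with Tox4 and those of Mettl14 share 323 bp with Sec24d, both on the opposite strand. With the strand setting "not given in the sources used here", reads in these stretches cannot be assigned with certainty to either gene.

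Ratios within a library do not depend on the scaling between libraries. The TPM of Mettl14 was 0.444 to 0.727 of that of Mettl3 (mean 0.550 ± 0.110, n = 6). The ratio of Wtap to Mettl3 was 0.683, 0.524 and 2.05 in the male libraries A, C and D and 1.99, 4.89 and 4.64 in the female libraries A, B and C. The adaptor was therefore below the catalytic subunit in 2 libraries and above it in 4. Zc3h13 ranged from 0.101 of the Wtap level in female B to 1.26 in male C.

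**Figure D2:**
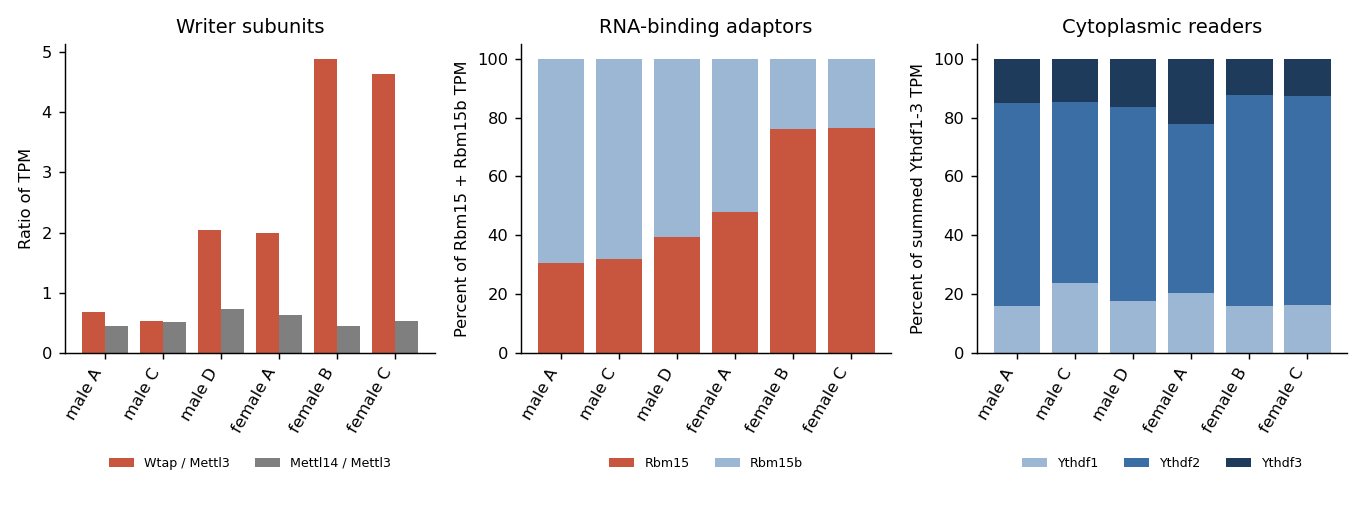
Ratios and shares of TPM in each library: Wtap and Mettl14 over Mettl3 (left), Rbm15 and Rbm15b as percent of their sum (middle), and Ythdf1, Ythdf2 and Ythdf3 as percent of theirs (right). The ratio of Wtap to Mettl3 runs from 0.524 to 4.89 while that of Mettl14 to Mettl3 stays between 0.444 and 0.727, and Rbm15 passes 76% of the pair in female B and female C.

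Of the cytoplasmic readers, Ythdf2 (ENSMUSG00000040025, chr4:132184912-132212303, minus strand) was the most abundant in each library, with 57.4% to 71.7% of the summed TPM of the 3. It was at 146, 114 and 180.3 CPM in the male libraries A, C and D and 154, 223 and 175 CPM in the female libraries A, B and C, and the sexes overlapped. Copies in the pseudogenes Gm6823 and Gm8401 cover 44.4% of its longest transcript, and these held at most 1 count in a library. The setting for multi-mapping reads is not known, so Ythdf2 may have lost reads in this stretch and be set too low. Ythdf1 (ENSMUSG00000038848, chr2:180904377-180920949, minus strand) was at 24.2, 31.9 and 35.2 CPM in males and 39.5, 36.3 and 28.9 CPM in females, in the same order. Ythdf3 (ENSMUSG00000047213, chr3:16183183-16217035, plus strand) was at 36.0, 31.2 and 51.2 CPM in males and 67.4, 43.1 and 35.2 CPM in females. Both genes peaked in female A and overlapped between the sexes. Ythdf3 took its largest share of the 3, 22.2%, in female A, and its smallest, 12.3% and 12.7%, in female B and female C. The nuclear reader Ythdc1 (ENSMUSG00000035851, chr5:86804221-86836659, plus strand) was at 19.5, 24.7 and 35.6 CPM in males and 35.5, 29.2 and 33.9 CPM in females, again in the order given above. Male A was lowest, and male D and female A were highest and nearly equal. A near-identical copy, Gm43055, matches 9.6% of the longest Ythdc1 transcript, and it was not analysed here.

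Variation over the 6 libraries was summarised as the SD of log2 CPM and set beside all 8879 tested genes with a mean of at least 10 CPM, whose median SD was 0.30. The SD was 1.29 for Wtap and 1.17 for Rbm15, and 24 and 44 of the 8879 genes had a larger one. The other 8 genes lay between 0.11 for Mettl14 and 0.41 for Ythdf3, at the 3.2nd to the 73.3rd percentile of all genes. Mettl3, at 0.28, was at the 45.3rd percentile, so it was about as variable as a typical gene, whereas Mettl14 was among the least variable. With library totals in place of TMM factors the SD of Mettl14 was 0.19, at the 15.3rd percentile. The median over the 10 genes was 0.34. Without record set 2 the SD was 0.72 for Wtap (93.5th percentile) and 0.36 for Rbm15 (63.3rd percentile). It was 0.35 for Mettl3 (61st percentile), near that of Rbm15, and 0.05 for Mettl14 (1.2nd percentile). The wide spread of Rbm15 thus rested on female B and female C, and that of Wtap only in part.

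**Figure D3:**
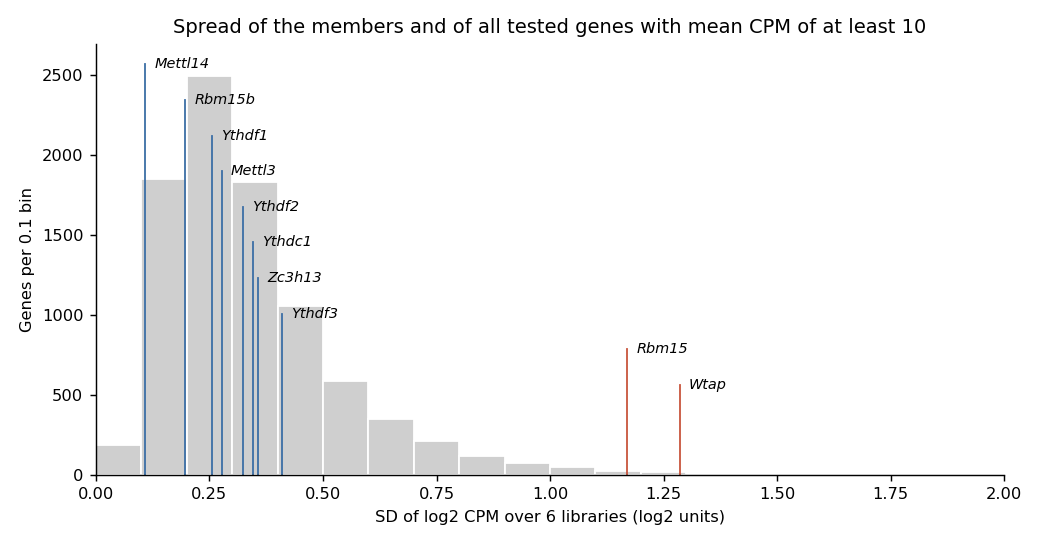
Histogram of the SD of log2 CPM over the 6 libraries for the 8879 tested genes with a mean of at least 10 CPM (genes per bin), with a line for each of the 10 genes whose height carries no value. The lines of 8 genes lie within the bulk, from 0.11 to 0.41, and those of Rbm15 (1.17) and Wtap (1.29) lie in the tail.

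Which other genes followed Wtap and Rbm15 was read from the root mean square difference between log2 CPM profiles, each centred on its own mean over the 6 libraries. Against Wtap the difference was 0.26 for Rbm15, the fourth smallest of 8878 genes, and 1.23 and 1.24 for Mettl3 and Mettl14, at ranks 5341 and 5503. The closest genes outside the 10 were Skil (0.13), which encodes the TGF-beta corepressor SnoN, Myef2 (0.17), the kinase gene Pim1 (0.26), the heat shock factor gene Hsf2 (0.31) and Alkbh5 (0.32). Against Rbm15 the closest of all was Alkbh5 (0.22), ahead of Wtap itself, followed outside the 10 by Myef2 (0.30), Skil (0.31), the Myc partner gene Max (0.32) and Hsf2 (0.33). Alkbh5 encodes an m6A demethylase, so over all 6 libraries the gene with the profile nearest to that of Rbm15 was one for removal of the mark. Without male A and male C, a choice made after the data were seen, Wtap ranked 1st for Rbm15 (0.14) and Alkbh5 ranked 6th (0.21). For Wtap, Alkbh5 then ranked 2nd (0.08) and Rbm15 4th (0.14). In record set 1 alone, chosen after the data were seen, Alkbh5 ranked 97th of 8878 for Rbm15, Rbm15 ranked 319th for Wtap, and Wtap ranked 2648th for Rbm15. The measure is a description over 6 libraries that differ in depth and record set.

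**Figure D4:**
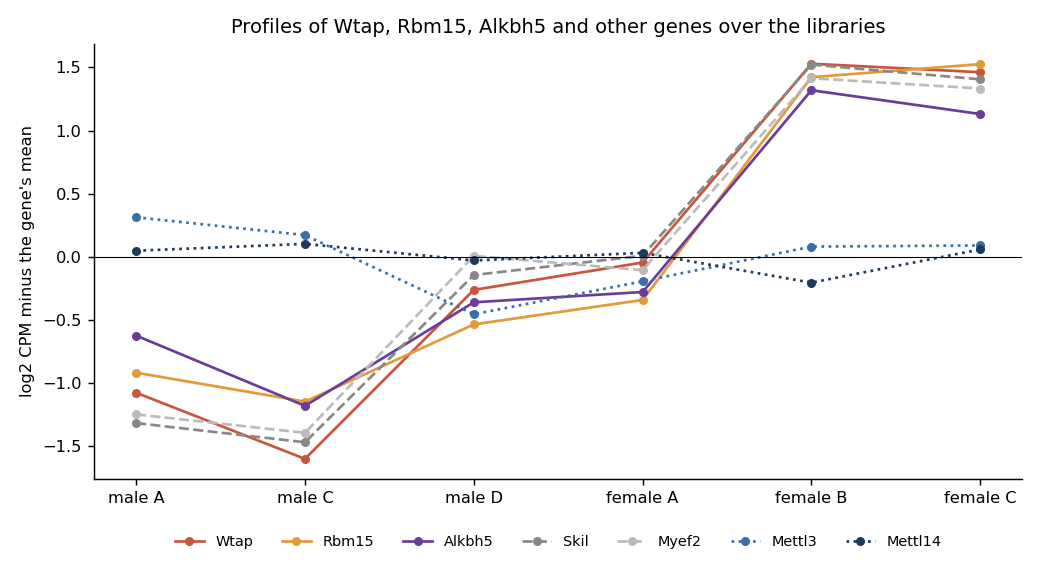
log2 CPM minus the gene's mean over the 6 libraries, with lines that join the values of 1 gene and imply no order of the libraries. Wtap, Rbm15 and Alkbh5 lie together with Skil and Myef2, low in male A and male C and high in female B and female C. Mettl14 stays near 0, and Mettl3, highest in male A and lowest in male D, varies less than those genes.

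The promoters of Wtap, Rbm15 and Alkbh5 are shown because their transcripts had like profiles; each is the 250 bases before the most upstream start in the RefSeq table (GRCm38.p6), at chr17:12992544-12992793 (minus strand), chr3:107333290-107333539 (minus strand) and chr11:60537433-60537682 (plus strand). In the count files Alkbh5 spans chr11:60536381-60558512, so its window lies inside the gene as counted. Those of Wtap and Rbm15 lie at the start of their genes as counted. Capitals mark matches on either strand to the GC box GGGCGG and the CCAAT box.
Wtap: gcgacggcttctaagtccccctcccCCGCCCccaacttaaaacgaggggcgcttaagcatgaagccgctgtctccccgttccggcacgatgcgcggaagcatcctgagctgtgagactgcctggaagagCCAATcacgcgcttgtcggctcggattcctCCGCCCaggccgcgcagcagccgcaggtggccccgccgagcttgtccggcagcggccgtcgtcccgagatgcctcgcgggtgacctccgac
Rbm15: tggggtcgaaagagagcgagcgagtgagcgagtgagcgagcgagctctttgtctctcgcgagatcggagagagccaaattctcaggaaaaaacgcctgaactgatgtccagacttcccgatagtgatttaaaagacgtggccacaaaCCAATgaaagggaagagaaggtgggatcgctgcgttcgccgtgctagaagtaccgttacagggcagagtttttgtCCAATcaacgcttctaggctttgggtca
Alkbh5: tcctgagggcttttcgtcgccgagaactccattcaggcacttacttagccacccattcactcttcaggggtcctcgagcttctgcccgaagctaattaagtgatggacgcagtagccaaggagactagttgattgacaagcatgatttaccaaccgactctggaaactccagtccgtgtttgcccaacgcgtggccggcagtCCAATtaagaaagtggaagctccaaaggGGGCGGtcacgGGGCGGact
The CCAAT box was the motif found in all 3, at 121 bases before the start of Wtap, 103 and 28 before that of Rbm15 and 48 before that of Alkbh5. It is common, being present in 33.9% of the 32851 promoters of this length, and in 3 of the 8 members with an entry (Ythdf1 is the third; Mettl14 and Ythdf3 had none). The GC box, in 32.7% of all promoters, was found in Wtap and Alkbh5 and in 6 of the 8 members. The windows of Wtap, Rbm15 and Alkbh5 held no cAMP response element (TGACGTCA, 1.55% of all promoters), AP-1 site (TGANTCA, 6.75%), E-box (CACGTG, 6.02%), TATA box (TATAAA, 12.4%), ETS site (CCGGAAGT, 2.88%), CArG box (1.47%) or NRF1 site (3.74%). No motif overlapped another in the 3 windows. These matches are letters in a window and were not tested as binding sites.

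Between the sexes, the fitted change of Wtap was a log2 of 2.02 (standard error 0.46), female minus male, and that of Rbm15 1.93 (0.45). Those of the other 8 genes lay between -0.31 for Rbm15b and 0.32 for Ythdf2. Of the 10 genes, 0 were called by the edgeR quasi-likelihood test at an adjusted p under 0.05, which called 0.0267% of 14958 genes; at an unadjusted p under 0.05 there were 2, and 661 of the 14958. DESeq2 called 2, Wtap and Rbm15, where it called 0.087% of all genes, and edgeR without a low-count filter called the same 2 where 0.0542% of genes were called. All 3 female libraries were above all 3 male ones for 2 of the 10 genes, against 4.18% of all tested genes, and all below for 1, Rbm15b, against 3.88%. The genes were chosen with this contrast known, so nothing is read from these counts. The change of Wtap was 1.39 and that of Rbm15 1.61 without male A and male C. Within record set 1, where female A is the only female library, it was 0.83 for Wtap and 0.50 for Rbm15. In the 18 alternative settings the sign was positive in all for Wtap, Rbm15 and Ythdf2 and negative in all for Rbm15b, whereas Mettl3, Mettl14, Zc3h13, Ythdf1, Ythdf3 and Ythdc1 took both signs.

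Record set 2 was compared with record set 1 with sex as a term, which rests on female B and female C against female A. The log2 change was 1.54 (standard error 0.54) for Wtap and 1.82 (0.39) for Rbm15. As plain means, record set 2 was 4.33-fold above record set 1 for Wtap and 4.53-fold for Rbm15. The other genes lay between -0.78 for Ythdf3 and 0.37 for Ythdf2. The edgeR test called 0 of the 10 and 0% of all 14958 genes (483 at an unadjusted p under 0.05, Wtap and Rbm15 among them), and DESeq2 called Rbm15, with 0.0869% of genes called. For 2 of the 10 genes both libraries of record set 2 were above the other 4, against 11.3% of all tested genes, and for 0 of the 10 both were below, against 10.3%. Pool size moves with record set, and the 2 cannot be told apart.

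**Figure D5:**
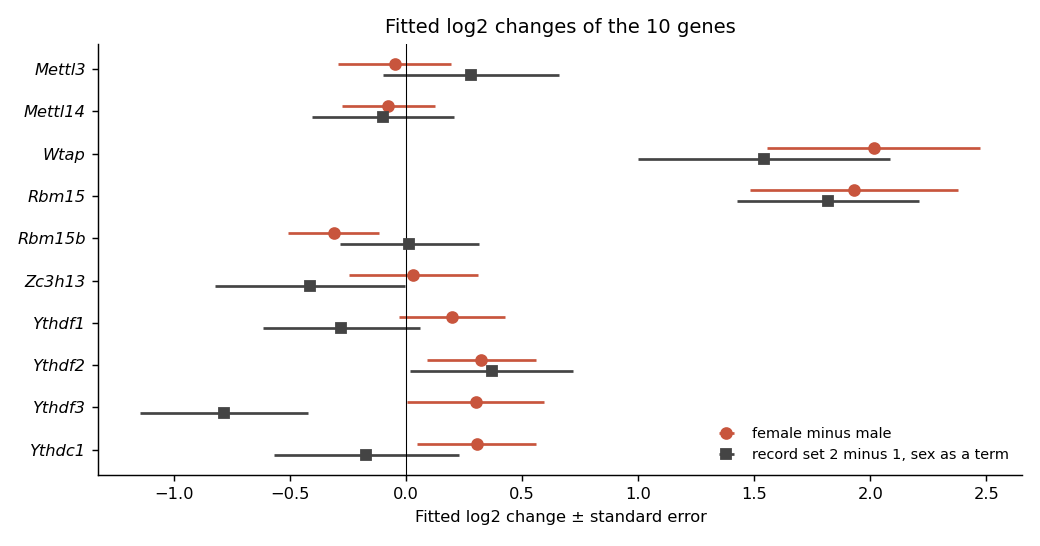
Fitted log2 change of each gene with its standard error, for female minus male (red circles) and record set 2 minus record set 1 with sex as a term (grey squares). Wtap and Rbm15 lie above 1.5 in both fits; the other genes lie between -0.78 and 0.37.

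The rest of the pathway was taken from a list of 30 genes, all of them tested. Between the sexes 0 of them were called in either direction, by edgeR over all 6 libraries and in each of the 18 alternatives, DESeq2 and limma voom included. In the edgeR fit 2 had an unadjusted p under 0.05, Alkbh5 and Hnrnpa2b1, against 661 of all 14958 genes. The median log2 change of the 30 genes was 0.15, against 0.00 over all genes tested. Alkbh5 (ENSMUSG00000042650) was at 36.3, 24.7 and 43.6 CPM in the male libraries A, C and D and 46.1, 139.8 and 123 CPM in the female libraries A, B and C. As for Wtap and Rbm15, record set 2 stood apart and female A was close to male D. The log2 change of Alkbh5 was 1.56 (standard error 0.40, adjusted p = 0.961, edgeR), and it was higher in each female library than in each male one. Between the record sets its log2 change was 1.51 (standard error 0.40, adjusted p = 1.00, edgeR). The second demethylase, Fto, differed less between libraries. It was 325.5 and 355 CPM in female B and female C and at most 300.2 CPM in the other 4, so record set 2 was higher here too, by 1.29-fold. Its female mean was 316 ± 44.3 CPM and its male mean 261 ± 36.6 CPM (SD, n = 3 each), with a log2 change of 0.27 (adjusted p = 0.961, edgeR) and an SD of log2 CPM of 0.24.

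The other 29 genes had log2 changes under 0.5 in size. The remaining writer subunits were present, with Virma, the scaffold of the complex, at 19.3 ± 5.94 TPM and Cbll1, which encodes Hakai, at 26.6 ± 6.54 TPM (n = 6). Their log2 changes were 0.05 and 0.34. Of the separate methyltransferases, Mettl5, which methylates ribosomal RNA, stood at 45.2 ± 7.25 TPM and Mettl4 at 35.6 ± 8.03 TPM. Among further reported readers, Hnrnpa2b1 was at 473 ± 81.4 TPM, with a log2 change of 0.46 (adjusted p = 0.961, edgeR), and Hnrnpc at 208 ± 21.7 TPM, with -0.11. Partners of the readers included Srsf3, a splicing factor bound by Ythdc1, at 102 ± 23.7 TPM and the export receptor gene Nxf1 at 82.9 ± 12.7 TPM. Mat2a, which makes the methyl donor S-adenosylmethionine, was at 340.4 ± 64.3 TPM and its regulatory partner Mat2b at 77.5 ± 7.77 TPM, with log2 changes of -0.09 and 0.00. Spen, of the same protein family as Rbm15, was at 2.80 ± 0.489 TPM.

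Several other measures differed between the libraries, and those given here followed the order of Wtap and Rbm15 at most in part. Single genes within a sum may lie closer to that order. The summed level of 35 immediate early and stress genes was 1913 CPM in female B and 1542 CPM in female C, against 1056 to 1166 CPM in male C, male D and female A, but 1878 CPM in male A, where Wtap and Rbm15 were low. Of the 31 tested, 10 had both libraries of record set 2 above the other 4, against 11.3% of all tested genes, and 1 gene of the list, Egr4, had no count. Of its most abundant genes, the transcription factor gene Fos was at 684 and 499.7 CPM in female B and female C, 483 CPM in male A and 179 to 237 CPM in the other 3. Klf6 (151 to 193 CPM), the chaperone gene Hsph1 (127 to 211 CPM) and the phosphatase gene Dusp6 (47.3 to 213 CPM) did not follow Wtap, with Hsph1 lowest in female B and female C. The summed sensory neuron markers were 19723 and 18891 CPM in female B and female C and 14395 to 15654 CPM elsewhere, and 6 of the 12 had both libraries of record set 2 above the rest, against the same 11.3%. For 2 of the 12, each female library was also above each male one, against 4.18% of all tested genes. Mitochondrial genes took 1.10% of counts in male A and 1.28% in male C, the libraries with the lowest Wtap, and 2.02% to 2.91% in the others. Macrophage markers (led by Fcer1g and C1qb) summed to at most 13.4 CPM, and erythroid markers (led by Hba-a1 and Hba-a2) to at most 15.2 CPM. The part of these measures in the levels of Wtap and Rbm15 was not tested.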

How the data were processed

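RNA from 6 libraries was made into cDNA and amplified (SMARTer kit for low input), per the labels' protocols, which name no molecular identifiers. Subread, featureCounts 1.4.5 and the build GRCm38.p2 are named, with no roles, per the submitters' processing notes, and settings for strand and multi-mapping reads were "not given in the sources used here". Each file that the authors deposited held raw counts per Ensembl gene, the gene length, CPM and RPKM. The deposited CPM and RPKM were recomputed from the deposited counts and lengths (largest differences 4.5e-11 and 6.4e-12) and not used further.

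Groups were taken from the labels. The sex comparison used the quasi-likelihood test of edgeR 4.0.16 in R 4.3.3 on counts, with TMM factors (0.922 to 1.08), filterByExpr on sex, 3 female and 3 male libraries and no covariate, adjusted by Benjamini-Hochberg over 14958 genes; the record set comparison added sex as a term. The labels describe separate pools of ganglia from 1 to 3 embryos, without stating separate litters. They give 2 mothers for male C and 2 for female A, and no number of mothers for the other libraries. P-values therefore measure the spread between these pools, which differ in size. Standard errors of the edgeR fits were derived as the absolute log2 change divided by the square root of the F statistic of the test. SDs of log2 CPM used a prior count of 2. Near-identical copies were sought with blastn 2.17.0 (at least 95% identity over 150 bases) in GENCODE M21 transcripts. The members and gene lists were chosen with earlier results of these data known. Named genes were the 10 members, the 2 most abundant genes of each pathway list, pathway genes called or without overlap between the sexes at a log2 change of at least 0.5, the 4 most abundant immediate early genes and the 5 genes nearest to Wtap and to Rbm15. From each marker list the 2 most abundant genes were named, apart from 1 gene that is not reported here; Xist and Egr4 were named after their values were seen. Alternatives were other factors, filters, DESeq2 1.42.0, limma 3.58.1 (voom), left-out libraries, a replicate block and record set as a term. The tests were tested on simulated data.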

Additional observations from a re-analysis of the deposited data

How the results depend on the processing

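Depth limits Rbm15 most, with 147 counts in male A. In the sex comparison edgeR called 4 genes and 0 members, 14 genes and 2 members without a low-count filter, 0 genes with record set as a term and 0 genes within record set 1, where 1 female library is assumed to vary like the males. DESeq2 called 13 genes and 2 members, and limma voom 1 gene and 0 members. The replicate letter as a block left 1 residual degree of freedom and called 77 genes and 1 member, Wtap. The letters A and C are shared by both sexes without a stated pairing, and the deviations of same-lettered libraries correlated at -0.08 and 0.05 across 14958 genes, which are not independent replicates. Leaving out 1 library gave 0 to 5 genes and 0 members; without female A the count was 0. In the record set comparison edgeR called 0 genes and 0 members, 3 genes without a filter, 3 genes without the sex term, and 115 genes and 2 members in females only, which compares 2 libraries with 1; DESeq2 called 13 genes and 1 member. No fit without female A could be made for record set. Causes were not tested. Library totals in place of TMM factors shifted the median log2 change of all genes to -0.12 from 0.00. Among the other results, 22 values moved and 309 did not. With 0 members called by edgeR over all 6 libraries, there was no called member value whose sign could change. Values that were not called did change sign, such as the log2 change of Mettl3 between the sexes. It went from -0.05 to 0.44 without male A and male C, which leaves 1 male library.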
